A study of Brassica napus with 12 samples.

Results

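H3K27me3 was compared between flower buds and seedlings of HZ62, a hybrid of Brassica napus (oilseed rape), in the 2 flower bud and 2 seedling libraries of this mark among the 12 libraries of the series. The libraries were chosen by their labels alone. Trimethylation of lysine 27 on histone H3 is laid down by Polycomb repressive complex 2 and accompanies the silent state of many developmental genes in plants. In Arabidopsis it is placed at short nucleation sites, from which it can spread over a whole gene, and it is removed by demethylases or lost through cell division when a gene is switched on. Floral identity genes are classical targets there, marked in leaves and freed of the mark in flowers.

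The flower bud material was buds under 2 mm and the seedling material was plants of 2 weeks, both labelled wild type and grown under 16 h of light at 22 °C and 8 h of dark at 18 °C. The labels spell the first tissue "flower bug", and the titles call the second one leaf while the tissue field says seedling. Each library came from about 1 g of material, so every profile is an average over the cell types of the organ, and fewer cells with the mark cannot be told apart from less of the mark per cell. Whether the 2 libraries of a tissue came from separate plants is not stated. Every p-value then measures a spread between libraries that may be technical. The library numbers in the titles fall in separate ranges for flower bud and seedling, so that tissue and library series cannot be told apart. The numbers of the silique libraries, used below for comparison, interleave with those of flower bud and lie apart from those of seedling. The part of library series in any likeness of flower bud and silique was not tested. Positions are on the numbered sequences of the deposited lists, 1-based, and no annotation of that build was used here. Regions are therefore named by position, without genes, and the tissue labels were not checked against marker genes.

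The flower bud libraries were sequenced about 3 times deeper, with 11513204 and 10929797 fragments after filtering, against 3647059 and 3479885 in seedling. Fragments were also longer in flower bud, at 279 and 294 bp, than in seedling, at 226 and 228 bp. The flower bud lists held 25956 and 25589 peaks that covered 35.7 and 40.4 Mb. The seedling lists held 22966 and 20339 peaks that covered 21.8 and 18.1 Mb. Peaks of 5 kb or wider numbered 594 and 871 in flower bud and 149 and 78 in seedling. The median peak spanned 1037 ± 103 bp in flower bud and 641.5 ± 19.1 bp in seedling (SD, n = 2 each). None of the flower bud values overlapped the seedling values in these measures, and each gave an exact permutation p of 0.333, two-sided, which is the smallest that 2 libraries against 2 can give.

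Merging the peaks of the 4 lists where they overlapped by 1 bp gave 28524 regions. Flower bud had many more regions of its own than seedling. Both flower bud lists and neither seedling list had a peak in 5812 regions, which was 20.4% of all regions, and both seedling lists and neither flower bud list in 475, which was 1.67%. All 4 lists had a peak in 13526 regions. Another 3218 regions were in both flower bud lists and 1 seedling list, and 260 were in both seedling lists and 1 flower bud list. Of the 22556 regions in both flower bud lists, 74.2% had a peak in at least 1 seedling list. Of the 14261 regions in both seedling lists, 96.7% had a peak in at least 1 flower bud list, so that nearly all seedling regions were marked in flower bud too. For scale, pairs made of 1 flower bud and 1 seedling list shared between 38 and 247 regions that the other two lists lacked, against the 475 of the seedling pair. Judged on 1 seedling library, seedling regions without flower bud numbered 905 without seedling replicate 1 and 1456 without seedling replicate 2.

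**Figure D1:**
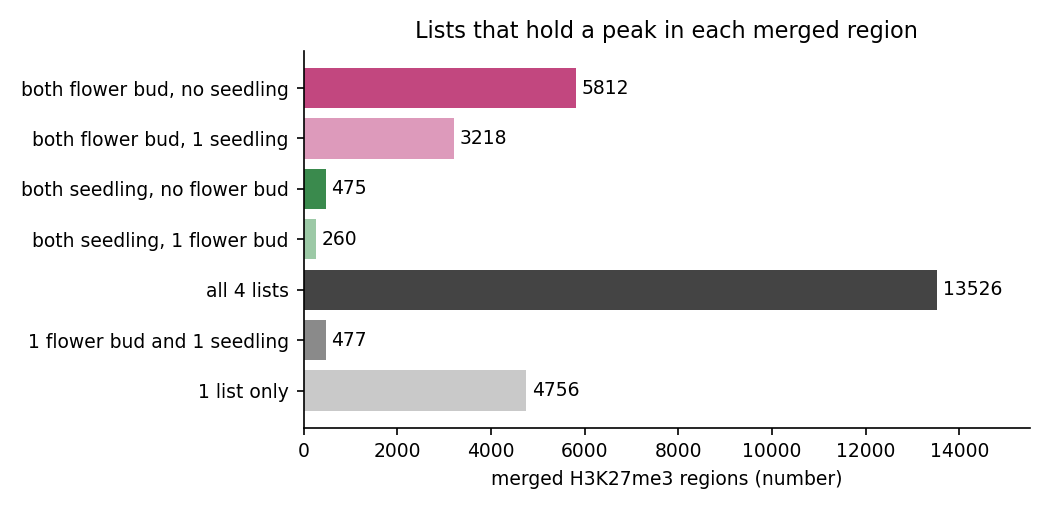
Number of merged H3K27me3 regions (horizontal axis) by the lists that hold a peak in them (rows). Regions of both flower bud lists without seedling (5812) outnumber those of both seedling lists without flower bud (475), and 13526 regions are in all 4 lists.

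The regions found in 1 tissue were weak in flower bud and stronger in seedling. Strength is given here as scaled pileup, the number of fragments over the summit divided by the median of the same library over the regions in all 4 lists, which was 78 and 87 fragments in flower bud and 27 and 23 in seedling. A value of 1 is thus an average shared region. The flower bud regions had a median scaled pileup of 0.415 and the seedling regions one of 0.663. The weakest peak called in a flower bud list rested on 16 fragments, a scaled pileup of 0.205 and 0.184 in the 2 libraries, and the weakest in a seedling list on 9 fragments, a scaled pileup of 0.333 and 0.391. In the weaker of the 2 flower bud libraries, 3146 of the 5812 flower bud regions (54.1%) lay below the weakest peak of seedling replicate 2 and 1772 (30.5%) below that of seedling replicate 1, the lowest of seedling. In both flower bud libraries, 655 (11.3%) lay below the lowest of seedling. None of the 475 seedling regions lay below the weakest peak of either flower bud list. None could, since the seedling floors of 0.333 and 0.391 are above those of flower bud. The medians of 0.415 and 0.663 also rest on these unequal floors.

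Counts at equal strength were smaller, and flower bud stayed ahead where the bound was common to both tissues. At a scaled pileup of 0.565 or more in both libraries, the highest 10th percentile of the 4 lists, 863 regions remained that only flower bud held and 293 that only seedling held. At 0.870 or more, the highest median of the 4 lists, the counts were 198 and 67. With the higher median of the lists that lack the region as the bound they were 198 and 228, because the median peak had a scaled pileup of 0.628 and 0.598 in the flower bud lists and 0.778 and 0.870 in the seedling lists. The order of the tissues under this requirement therefore depends on which bound is set. Equal numbers of peaks, the 20339 of each list with the smallest q-values, gave 3338 and 791. That ranking does not equalise scaled pileup.

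The 2 silique libraries of the same mark came from siliques of 3 to 5 cm. They differ in depth by 2.80 times (7441109 and 2654588 fragments) within 1 tissue, close to the 2.997 to 3.31 times between flower bud and seedling libraries. They give 1 example of lists of unequal depth with no difference in tissue, and whether the 2 libraries differ in more than depth was not tested. Between 33.98 and 42.9% of the regions of a flower bud list had no peak in a single seedling list, less than the 51.5% of the deeper silique list without a peak in the shallower one. The strong part differed. Regions of the deeper list alone that reached the median strength of the shallower list numbered 504 to 571 in the 4 pairs of flower bud and seedling lists (4.60 to 6.51%) and 120 in silique (0.973%). Regions of the shallower list alone numbered 1059 to 2150 in the pairs of flower bud and seedling lists and 71 in silique. The share of regions missing from the shallower list was thus no larger between tissues than within silique, and the share of strong ones was larger between tissues. Libraries of similar depth also differed. Between the flower bud lists 1482 regions were in replicate 1 alone and 2761 in replicate 2 alone, and 0.945% of the first reached the median strength of the other list. Between the seedling lists 5577 regions were in replicate 1 alone and 1999 in replicate 2 alone, and 2.98% of the first reached the median strength of the other list. For either flower bud list, the count of regions missing from a single seedling list (8771 to 10953) was thus above the count missing from the other flower bud list. For either seedling list, the count missing from a single flower bud list was below the count missing from the other seedling list. These are descriptions of single pairs and were not tested.

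**Figure D2:**
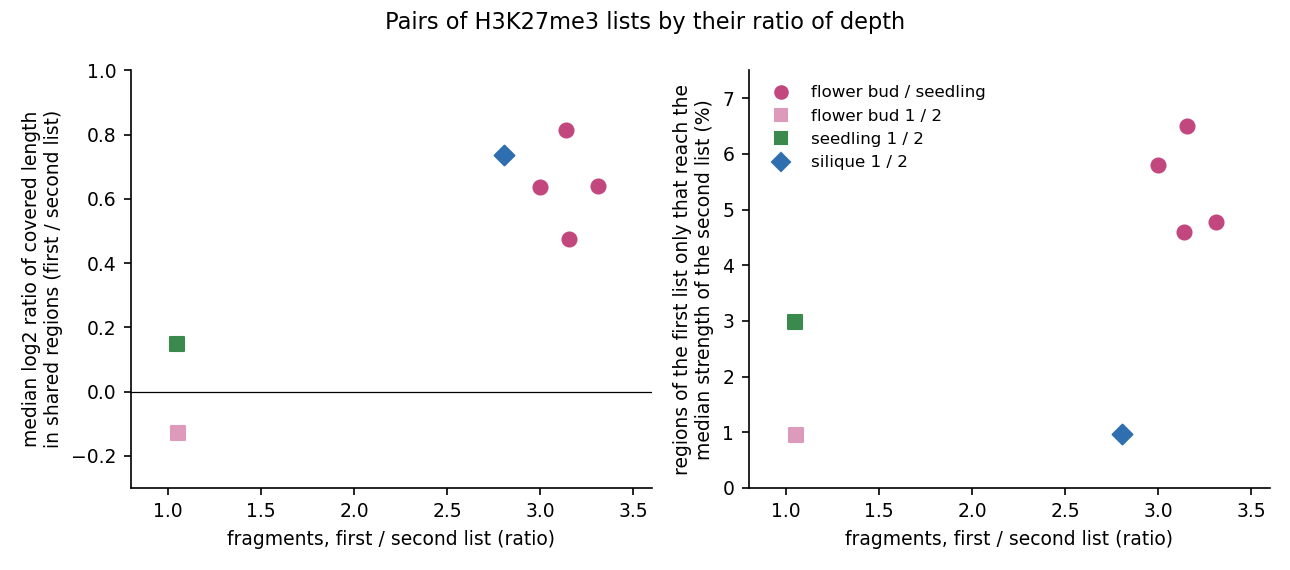
Pairs of H3K27me3 lists, with the ratio of fragments (first over second list) on the horizontal axes. Left, the median log2 ratio of covered length in regions of both lists. Right, the percent of regions in the first list alone that reach the median strength of the second. Squares are replicates of 1 tissue. The flower bud and seedling pairs lie around the silique pair (diamond) on the left (0.474 to 0.815 against 0.736) and above it on the right (4.60 to 6.51% against 0.973%).

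The strongest regions of flower bud without a seedling peak were mostly broad and were also marked in silique. On sequence 4 from 21118870 to 21125023 the scaled pileup was 3.88 and 3.94 in flower bud, with peaks over 5641 and 6154 bp. The nearest seedling peak was 713 bp away, so that joining peaks up to 500 bp apart, which links flower bud pieces with that peak, ended its standing as a separate region. On sequence 3 from 1858950 to 1863167 the values were 3.13 and 3.36, with 7010 bp to the nearest seedling peak. A short one, of 817 bp, lay on sequence 12 from 7449884 to 7450700 and had 2.92 and 2.84. On sequence 10 from 19531609 to 19539009 the scaled pileup was 2.54 and 2.98 over 6435 and 7401 bp, with no seedling peak within 21171 bp. The region on sequence 15 from 5246971 to 5249425 had 2.56 and 2.46. The widest of all lay on sequence 9 from 37704771 to 37713859, where flower bud peaks covered 8136 and 8763 bp at 1.96 and 1.91. Both silique libraries had peaks in each of the 6 regions. The lowest flower bud scaled pileup in these regions was 1.91, in the one on sequence 9, which was picked for width. The others were picked for strength, so their high values follow from the choice. The part of depth in the missing seedling peaks was not tested. H3K4me3 was in both seedling lists and neither flower bud list in the regions on sequences 4 and 10, in 1 seedling list on sequence 3, and in all lists of both tissues on sequences 9, 12 and 15.

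The strongest regions of seedling without a flower bud peak were short and lay close together. Sequence 1 from 23357112 to 23358380 had a scaled pileup of 7.81 and 8.48 in seedling, which is 211 and 195 fragments, over 1269 and 1231 bp. A neighbour from 23350683 to 23351719 had 3.22 and 3.09. Between them, the region from 23355601 to 23355884 reached 3.07 and 3.91 over only 284 and 278 bp. Another pair of neighbours lay on sequence 13, where 26449792 to 26450445 had 2.78 and 3.00, and 26450968 to 26452234 had 2.15 and 2.43. The deposited fold enrichment over the local control was 13.5 and 12.9 from 23357112 on sequence 1. It was 30.2 and 30.4 from 26449792 on sequence 13, where the summits held only 75 and 69 fragments. The part of the control signal in this ranking was not tested. None of these 5 had a peak in silique or in any H3K4me3 list of the 2 tissues. The widest seedling regions covered 2612 and 3036 bp on sequence 18 from 52721397 to 52724458, 2158 and 2152 bp on sequence 13 from 75343394 to 75345601, and 2054 and 1899 bp on sequence 11 from 716835 to 718888. In both libraries of the tissue, 164 of the flower bud regions reached 2 kb (2.82%), against 2 of the seedling regions (0.421%).

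The second question was whether flower bud chromatin gained the mark by spreading of domains already marked in seedling or by new domains. Most of the gained bases lay in regions that seedling also marked. Bases covered in both flower bud lists and in neither seedling list came to 12.3 Mb, and the reverse to 0.367 Mb, or 1.10 Mb without seedling replicate 2. Of the gained bases, 6.36 Mb (51.8%) lay in flanks outside the outermost seedling peaks of a region, 1.96 Mb (16.0%) in gaps between seedling peaks, and 3.96 Mb (32.3%) in regions without a seedling peak. Of the bases marked in seedling alone, 0.195 Mb (53.02%) lay in regions without a flower bud peak, 0.155 Mb (42.1%) in flanks and 0.0180 Mb (4.90%) in gaps. Of the 33.9 Mb covered in both flower bud lists, 44.6% was also covered in both seedling lists, and of the 15.8 Mb covered in both seedling lists, 95.5% was also covered in both flower bud lists.

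**Figure D3:**
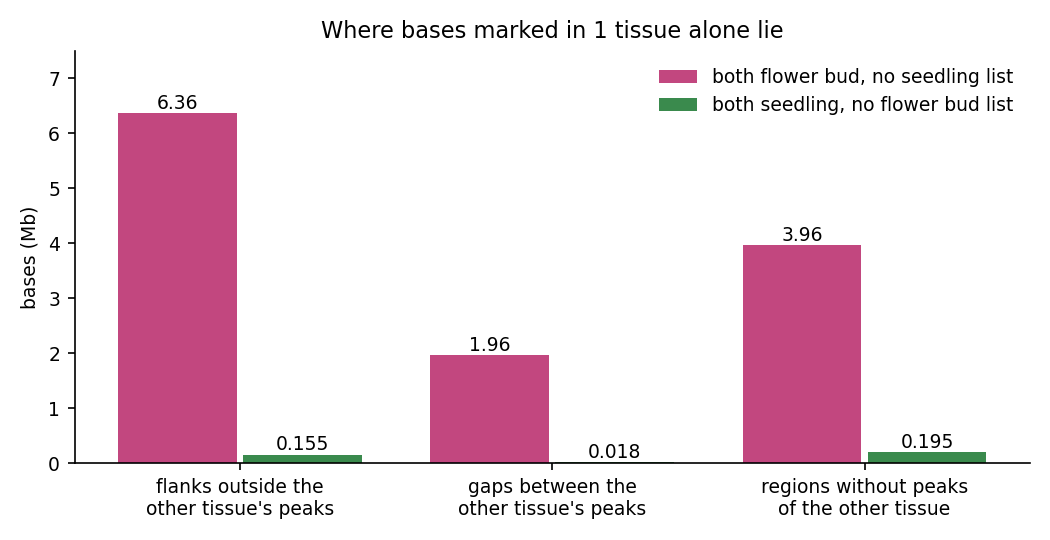
Bases in megabases (vertical axis) covered in both lists of 1 tissue and neither list of the other, by where they lie (groups of bars). Flanks hold the most flower bud bases (6.36 Mb), then regions without a seedling peak (3.96 Mb). Seedling bases are below 0.2 Mb in each group.

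The extensions were mostly short. Of the 13526 regions in all 4 lists, 54.8% extended beyond seedling in both flower bud lists on both sides, 34.1% on 1 side and 11.1% on neither. The median extension was 133 bp at the lower-coordinate edge and 136 bp at the other, which is less than a fragment, and 2.96% of the 27052 edges moved by 1 kb or more. Shared regions were in fewer pieces in flower bud, where 10.6 and 1.72% of them held 2 or more peaks, against 26.4 and 26.2% in seedling. In the 4 pairs of single flower bud and seedling lists, flanks made up 47.2 to 51.4%, gaps 11.1 to 13.2% and new regions 35.4 to 41.7% of the bases added in the deeper list. In the silique pair the shares were 45.3%, 6.97% and 47.8%. The share in gaps was thus higher in each flower bud and seedling pair than in the silique pair, and the share in new regions lower. Between lists of 1 tissue and similar depth, the shares in the same order were 63.9%, 4.33% and 31.7% for flower bud and 52.7%, 10.5% and 36.8% for seedling.

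Peaks of shared regions were longer in flower bud. The median covered length over the regions in all 4 lists was 1623 and 1813 bp in flower bud, against 1070.5 and 897 bp in seedling, a median ratio of 1.54 times. Both flower bud values exceeded both seedling values in 84.1% of regions, and the reverse held in 1.83%. By limma on log2 covered length with Benjamini-Hochberg adjustment at 0.05, 5439 regions (40.2%) were longer in flower bud and 35 (0.259%) shorter. No region passed without flower bud replicate 1 or without replicate 2, where 4769 and 3470 regions were longer and 42 and 82 shorter at an unadjusted p under 0.05. Divided by each library's median length, 1001 regions (7.40%) were longer and 1720 (12.7%) shorter, a balance that the division itself sets by centring the libraries. In the 4 pairs of single libraries the median ratio was 1.39 to 1.76 times, a range that holds the 1.67 times of the silique pair, of 1 tissue and unequal depth. The difference was largest in weak regions, with a median log2 ratio of 0.845 in the weakest and 0.415 in the strongest of 5 equal groups by mean scaled pileup.

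Some domains were extended by far more than a fragment. On sequence 10 from 434062 to 444132 the mark covered 9910 and 10071 bp in flower bud, against 2325 and 2714 bp in seedling. There 7179 bp were gained, and the scaled pileup was 2.47 and 2.72 in flower bud, against 1.00 and 1.13 in seedling. On sequence 4 from 22589721 to 22598492 it covered 7974 and 8772 bp in flower bud, against 900 and 1112 bp in seedling. On sequence 5 from 1572434 to 1580380 it covered 7391 and 7947 bp in flower bud, against 931 and 763 bp in seedling, at a scaled pileup of 3.76 and 3.92, against 1.00 and 1.52. In these places 1 or 2 short seedling peaks lay inside a domain of at least 7391 bp in flower bud. The region on sequence 13 from 9663693 to 9672220 was alike, with 8528 and 8314 bp in flower bud, against 1953 and 1204 bp in seedling. On sequence 18 from 46249256 to 46256238 flower bud covered 6734 and 6983 bp, and the only seedling peak was one of 253 bp in replicate 1. In the 4 regions with peaks in all lists the covered length passed the limma test, with adjusted p of at most 0.0107. The regions were picked for bases gained in the same lists, so this test is not separate evidence.

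Loss of length in flower bud was rarer. The first 3 regions given here were likewise picked for lost bases, so their length tests are not separate evidence. Sequence 1 from 23277637 to 23287697 had 3154 and 4204 bp covered in flower bud, against 9541 and 8895 bp in seedling, with 4158 bp in seedling alone (limma, log2 difference in covered length -1.34 ± 0.16 SE, adjusted p = 0.0111). On sequence 12 from 21232392 to 21237136 flower bud had 1 peak of 315 bp in replicate 1, against 4409 and 2980 bp in seedling. On sequence 5 from 477552 to 487665 the length fell less, to 6695 and 6975 bp in flower bud, against 8006 and 8152 bp in seedling (limma, log2 difference -0.24 ± 0.07 SE, adjusted p = 0.0441). There the scaled pileup was 1.54 and 1.76 in flower bud and 7.37 and 5.87 in seedling. That loss of pileup passed the limma test (log2 -2.00 ± 0.14 SE, adjusted p = 9.04e-08). The scaled pileup of the 3 widest regions in all 4 lists did not pass the test. The one on sequence 3 from 18753937 to 18776639 had 3.00 and 3.48 in flower bud and 2.56 and 2.52 in seedling (limma adjusted p = 0.0574). On sequence 14 from 1844919 to 1863801 the summits held 459 and 527 fragments in flower bud and 167 and 138 in seedling, a log2 difference of -0.03 ± 0.10 SE after scaling (limma adjusted p = 0.865). On sequence 16 from 45483638 to 45498992 they held 155 and 191 fragments in flower bud and 55 and 47 in seedling, a log2 difference of 0.03 ± 0.14 SE (limma adjusted p = 0.882). Flower bud covered the last one with 4 and 2 separate peaks, against 8 and 10 in seedling.

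The third question was which shared regions carried more or less of the mark once pileup was divided by each library's median. Across the 13526 regions in all 4 lists, log2 scaled pileup correlated at 0.968 between the flower bud libraries, 0.890 between the seedling libraries and 0.799 to 0.812 between tissues. These are correlations over regions of the same 4 libraries, and the seedling value rests on a median of 27 and 23 fragments a summit. By limma with Benjamini-Hochberg adjustment at 0.05, 1391 regions (10.3%) had higher and 1804 (13.3%) lower scaled pileup in flower bud. The counts were 663 and 980 without flower bud replicate 1, 436 and 745 without flower bud replicate 2, 2206 and 2837 without seedling replicate 1, and 2329 and 2642 without seedling replicate 2. With pileup divided by the library's fragments they were 629 and 919, and from the widest peak of a region 857 and 1453. Of the regions called with all libraries, 136 were 2-fold or more higher and 403 were 2-fold or more lower. Those called higher were strong and wide, with a median mean scaled pileup of 1.41 and a median merged width of 2849 bp. Those called lower were weak and narrow, at 0.743 and 1204.5 bp, beside 0.997 and 1891 bp for all regions tested.

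The excess of lower calls lay in weak regions. A region needs a seedling peak of at least 9 fragments to be in the set at all, and the part of this requirement was not tested. In the weakest of 5 equal groups by mean scaled pileup 20 regions were higher and 743 lower, and in the strongest 538 were higher and 136 lower. Among regions with a mean scaled pileup of 1 or more, a split chosen after the data were seen, 1081 were higher and 491 lower. Which direction prevails thus turned with the strength of the regions counted. The median log2 ratio of scaled pileup also rose, from -0.352 in the weakest group to 0.165 in the strongest. Division by 1 median per library leaves such a slope in place, and its part in the calls was not tested. Regions called higher were also often longer: 962 of 1391 (69.2%) passed the test of covered length in that direction, against 203 of the 1804 called lower (11.3%) and 40.2% of all regions.

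**Figure D4:**
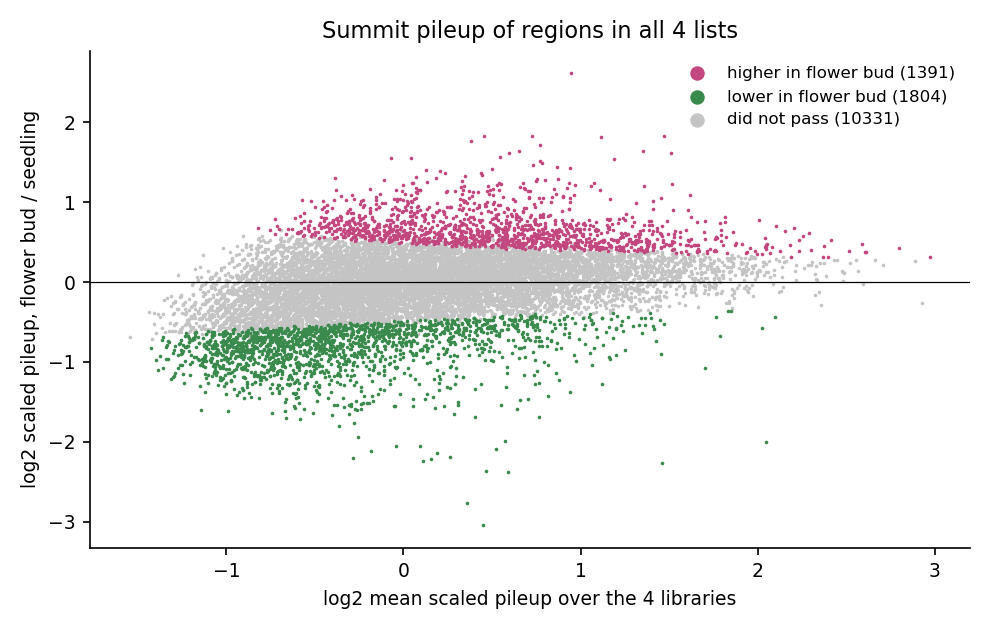
Regions in all 4 H3K27me3 lists, with the log2 mean scaled pileup on the horizontal axis and the log2 ratio of flower bud to seedling on the vertical axis. Each point is a region, coloured where it passed limma at an adjusted p of 0.05 (1391 higher, 1804 lower). Lower calls crowd at weak regions on the left, and higher calls reach across the strong regions on the right.

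The largest gain in strength was on sequence 14 from 64985399 to 64989877, where the scaled pileup was 3.28 and 3.34 in flower bud, against 0.519 and 0.565 in seedling. That is 256 and 291 fragments in flower bud, against 14 and 13 in seedling, and 6.12 times more after scaling (limma, log2 2.61 ± 0.15 SE, adjusted p = 2.06e-08). The covered length there was 4079 and 4479 bp in flower bud, against 581 and 536 bp in seedling. On sequence 9 from 15061564 to 15070319 the scaled pileup was 4.36 and 4.30 in flower bud, against 1.15 and 1.30 in seedling. Flower bud covered that region of 8756 bp with 2 peaks and 1 peak, and seedling with 5 and 4. Sequence 18 from 42997124 to 43004389 had 3.31 and 3.44 in flower bud and 0.963 and 0.957 in seedling. Sequence 16 from 39265220 to 39268186 had 2.41 and 2.75, against 0.667 and 0.783, and sequence 14 from 15306643 to 15310464 had 2.08 and 2.18, against 0.519 and 0.696. In these 5 regions flower bud was 3.51 to 6.12 times higher. They were picked among called regions in which the libraries of the tissues did not overlap. That held for all 1391 regions called higher and all 1804 called lower. A call itself favours such separation, and the share over all tested regions was not counted, so this is not separate evidence.

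The largest loss was on sequence 10 from 31388 to 33885, with a scaled pileup of 0.269 and 0.322 in flower bud, against 2.52 and 2.35 in seedling (limma, log2 -3.05 ± 0.18 SE, adjusted p = 2.06e-08). The peaks covered 359 and 573 bp in flower bud, against 2325 and 2498 bp in seedling. Sequence 15 from 44269 to 46668 had 0.359 and 0.299 in flower bud, against 2.48 and 2.00 in seedling. Both lie within 50 kb of the start of their sequence. Sequence 1 from 31346898 to 31348839 had 0.538 and 0.437 in flower bud, against 2.67 and 2.39 in seedling. Sequence 11 from 22406717 to 22408373 had 0.487 and 0.414, against 2.11 and 2.52. On sequence 2 from 28638990 to 28640735 the scaled pileup was 0.897 and 1.00 in flower bud, against 4.67 and 4.43 in seedling, while the covered length was 1444 and 1672 bp in flower bud, against 1726 and 1342 bp in seedling. The length there did not pass the test (limma, log2 difference 0.03 ± 0.20 SE, adjusted p = 0.902), and the libraries overlapped in it. All 5 losses, picked in the same way among called regions, had a limma adjusted p of at most 2.55e-07.

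**Figure D5:**
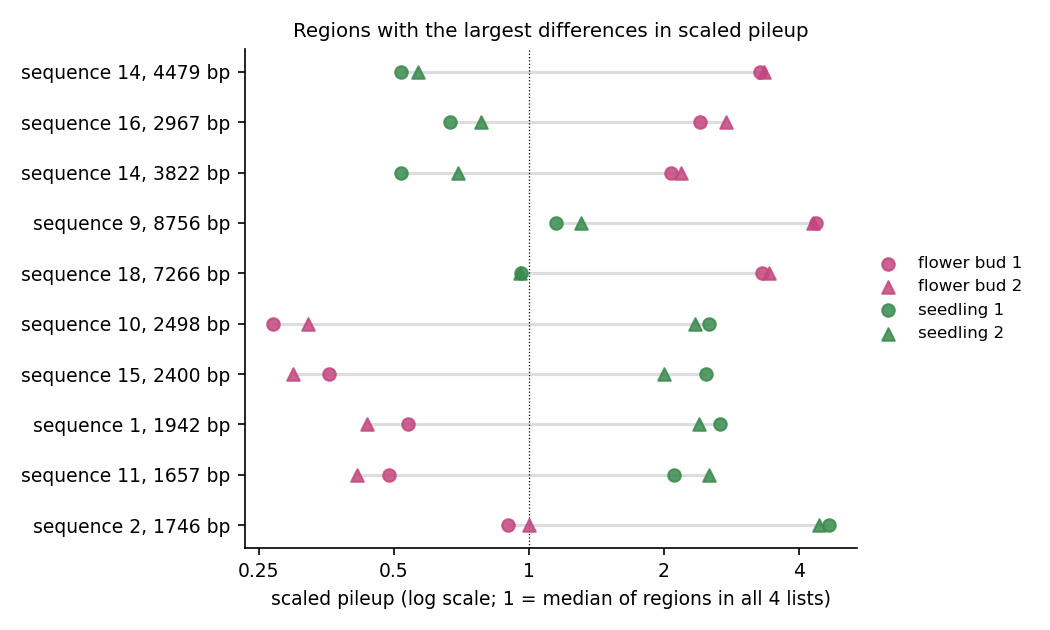
Scaled pileup (horizontal, log scale, 1 being the median of regions in all 4 lists) of the 10 regions in all 4 lists with the largest differences, 1 row each, named by sequence and merged width. By the rule of choice the libraries of the tissues do not overlap. In the upper 5 both flower bud libraries lie to the right of both seedling libraries, and in the lower 5 to the left.

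H3K4me3, the mark of active gene starts, was measured in separate libraries of the same tissues, and its peaks differed in the opposite direction in a part of these regions. The counts are descriptions and were not tested. Of the 5 regions with the largest gain, 4 had H3K4me3 peaks in both seedling libraries and none in flower bud, and of the 5 with the largest loss, 4 had H3K4me3 in both flower bud libraries and none in seedling. Among the 1391 regions with higher H3K27me3 in flower bud, 13.1% had H3K4me3 in both seedling lists and neither flower bud list, and 0.575% the reverse. Among the 1804 with lower H3K27me3, the reverse held in 5.60%, and 27 regions had H3K4me3 in seedling alone. Over the 13526 regions in all 4 lists, from which both sets come, H3K4me3 was in seedling alone in 3.28% and in flower bud alone in 1.91%, and over all 28524 merged regions in 4.27% and 1.39%. Of all 5812 flower bud regions without a seedling peak, 500 had H3K4me3 in seedling alone and 14 in flower bud alone. Of the 198 strong ones among them, 80 (40.4%) had H3K4me3 in seedling alone and 0 in flower bud alone. The strong ones had a larger median width than all 5812, and the part of width in these shares was not tested. Of all 475 seedling regions without a flower bud peak, 7.37% had H3K4me3 in flower bud alone and 0.421% in seedling alone. Of the 228 that reached the flower bud medians, a lower bound of 0.628, 24 (10.5%) had it in flower bud alone and 0 in seedling alone. Most regions carried no H3K4me3 in either tissue, 87.1% of all and 88.4% of those in all 4 lists.

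In silique, the later reproductive organ, most of the strong flower bud regions had a peak, and shares over all flower bud regions were smaller. Of all 5812, 57.0% had a peak in silique replicate 1 and 9.62% in the shallower replicate 2, against 71.3% and 38.5% of all 28524 merged regions. Of the 198 strong ones, 180 (90.9%) and 125 (63.1%) had one. Of the 475 seedling regions, 26.1% and 4.00% had one, and of the 228 strong ones 67 (29.4%) and 11 (4.82%). Of the regions called higher in flower bud, 93.1% had peaks in both silique lists, against 41.9% of those called lower and 71.2% of all regions in the 4 lists. These groups differ in strength, and the part of strength, of silique depth and of library series in these shares was not tested.

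New regions lay farther from existing domains than the seedling regions did. The median gap from a flower bud region without seedling to the nearest seedling peak was 10573 bp, with 33.6% within 5 kb and 11.6% beyond 50 kb. For seedling regions the median gap to the nearest flower bud peak was 2608.5 bp, with 63.4% within 5 kb and 5.47% beyond 50 kb. The flower bud lists cover 1.91 times the length, at 38.1 ± 3.34 against 19.98 ± 2.63 Mb (SD, n = 2 libraries each), and their part in these gaps was not tested. Of the 198 strong flower bud regions, 47 (23.7%) lay within 5 kb of a seedling peak.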

How the data were processed

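The authors deposited 1 list of peaks for every library. Narrow peaks were called per library by MACS 2.2.7.1 in paired-end mode, per the file headers, keeping q-values up to 1e-05 and 1 fragment per position, against a merged control of 12042843 fragments. BWA, SAMtools, GATK and MACS2 are named in the submitters' processing notes. The genome build is not given in the sources used here beyond its sequence names. Pileup, as deposited, is a signal: how many fragments cover a peak's summit. The authors' p-value and q-value are given as −log10, and q served to rank and filter peaks. Fold enrichment, a deposited ratio to the local control, was not used to choose or test regions and is printed only beside strong seedling regions. Per the labels, tissue was fixed in 1% formaldehyde and sheared to 200 to 600 bp.

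Peaks of the 4 lists were merged at 1 bp of overlap, and per region and library the covered length and the highest pileup were taken. Pileup was divided by the library's median over regions in all 4 lists. limma 3.58.1 (eBayes with trend, R 4.3.3) compared log2 values of 2 against 2 libraries. It recovered 93.5% of 200 regions simulated with 2-fold changes in scaled pileup among 13526, with 7 false calls. The simulated spread was the same for all regions of a tissue, without a floor of fragments or a slope with strength. The false calls therefore do not give the error rate of the real calls. Named regions are the 5 strongest and 3 widest of 1 tissue, the 5 largest called changes in pileup each way, the 5 with most gained and 3 with most lost bases, and the 3 widest in all lists, 35 in number after overlaps. The comparison, its bounds and this rule were chosen with earlier results of these data known. Alternatives included stricter q, equal peak numbers, merging across 500 bp, presence by cover of 50% and leaving out each library. The split by strength and the common bound were added after the data were seen. Precision is limited by fragments per summit, few in seedling. No sequence is printed, since no genome of this build was used here. Calculations used Python 3.11.15, numpy 2.4.6 and pandas 2.3.3.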

Additional observations from a re-analysis of the deposited data

How the results depend on the processing

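No paired analysis was possible because the labels give the libraries no replicate numbers. Counts of regions in flower bud alone and in seedling alone were 3338 and 791 with equal numbers of peaks, 863 and 475 at the 10th percentile and 198 and 228 at the median of the lists without the region, and 863 and 293 or 198 and 67 under the common bounds. At −log10 q of 10 or more there were 316 seedling regions, 39.9% of gained bases in new regions and 18 regions shorter in flower bud. With equal numbers the last 2 were 27.9% and 17. With cover of 50% of the region, 10327 regions were in flower bud alone and 6982 in all 4 lists. The silique pair gave 12339 regions in the deeper list alone and 47.8% of added bases in new regions. Calls of pileup (higher and lower) were 629 and 919 when divided by the library's fragments, and 857 and 1453 from the widest peak. Among regions with a mean scaled pileup of 1 or more, lower calls of pileup were 491, and 2636 were longer and 17 shorter. Lengths divided by the library median gave 1001 and 1720.

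Leaving out 1 library, which judges its tissue on the other alone, gave 6566 to 8296 regions in flower bud alone, 568 to 1456 in seedling alone, 13.9 to 17.9 Mb gained with 32.9 to 38.2% in new regions, and 0.441 to 1.10 Mb lost. Calls were 436 to 2329 higher and 745 to 2837 lower in pileup, and 0 to 8534 longer and 0 to 47 shorter. The lone library is assumed to vary like the others. No region passed for length without either flower bud library.

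The 10 regions named for pileup kept their call and direction in 93 of 93 values that could be computed (limma adjusted p at most 0.00164). The regions named for 1 tissue remained so under each alternative except sequence 4 from 21118870, which joined a region with a seedling peak when peaks up to 500 bp apart were merged. Only that merging could bring in a peak of the other tissue. The other alternatives take away peaks or lists or require more cover, and these regions were picked as strongest or widest. Their result is therefore a weak check. Bases in 1 tissue at the 8 regions named for them stayed within 1.5 times in 53 of 56, and at sequence 12 from 21232392 became 1429 at −log10 q of 10, and 1114 and 3606 without seedling replicates 1 and 2. The cause of these changes was not tested.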

Other observations

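A pair of stretches held the 5 strongest seedling regions without flower bud. On sequence 1, 12286 bp from 23350683 to 23362968 held 7 merged regions, of which 6 were in both seedling lists and none in flower bud, and 1 was in seedling replicate 1 alone. Their scaled pileup ran from 0.667 to 8.48, the latter at a fold enrichment of 12.9 over the local control. On sequence 13, 22114 bp from 26430121 to 26452234 held 4 regions, all in both seedling lists alone, with 1.39 to 3.00. Neither stretch had a peak in a silique H3K27me3 list or in an H3K4me3 list of flower bud or seedling. The domain of 10061 bp from 23277637 that was shorter in flower bud lies on the same sequence, before the first stretch. These stretches were singled out after their values were seen.

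Sequence 2 stood apart from the other 18 numbered main sequences. Of its 908 regions in all 4 lists, 186 were lower in flower bud (20.5%) and 63 higher (6.94%), while at most 15.7% were lower and at least 7.70% higher on each other sequence. It also had the smallest share of regions in flower bud alone (15.8%, against at least 18.6%). The median log2 ratio of scaled pileup was -0.12 on sequence 2 and -0.05 to 0.04 on the others, and in the 4 pairs of single libraries it ran from -0.14 to -0.10. H3K4me3 pileup, scaled the same way over 39998 regions in all 4 lists of that mark, had a median log2 ratio of 0.02 on sequence 2 and 0.03 to 0.12 on the others. In single pairs of H3K4me3 libraries the value on sequence 2 ran from 0.01 to 0.03. It overlapped the values on sequence 12, at 0.03 in each pair, and on sequence 13, at 0.028 to 0.045. The difference between sequences was not tested.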
